A study of Mus musculus with 16 samples.

Results

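The RNA bound to astrocyte ribosomes was compared between striata with and without a calcium pump expressed from a virus, in 8 libraries of the 16 in the study. These 8 were chosen by their labels as the IP (immunoprecipitate) fraction, 4 with the treatment label Control and 4 with the label hPMCA2w/b. The other 8 are the cleared lysates (input) of the same mice and serve here as a reference.

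Each library came from 1 adult C57BL/6N mouse, so the replicates are separate animals. Both groups received a RiboTag adeno-associated virus (AAV) that carries Rpl22-HA, a ribosomal protein with a hemagglutinin tag, for expression in striatal astrocytes. A second AAV carried a control protein, which the labels do not name, in 4 mice (control 1 to 4) and hPMCA2w/b in the other 4 (PMCA 1 to 4). The labels used here do not give the promoters of the 2 viruses, the time after injection or the ages.

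Astrocytes are glial cells that take up neurotransmitter and potassium around synapses and signal through transient rises of intracellular calcium. PMCA2 is a plasma membrane ATPase that exports calcium from the cytosol, and the hPMCA2w/b virus was used to suppress those signals. In the RiboTag method, antibody to the tag pulls down ribosomes of the cells that express the tagged protein, together with the RNA on them. The question the comparison addresses is which ribosome-bound RNAs of astrocytes change when their calcium signals are reduced.

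Many RNAs differed between PMCA and control mice, by small amounts. Of 15748 genes tested, 3088 (19.6%) passed an adjusted p of 0.05 (limma, Benjamini-Hochberg), 1503 (9.54%) higher and 1585 (10.1%) lower in PMCA mice. The median size of a called change was 0.402 on the log2 scale, against a median over all genes of -0.012. A change of at least 2-fold was found for 387 of the higher and 57 of the lower genes, and among the 10811 genes with a mean of at least 3 log2 CPM (reads of a gene scaled to the size of the library) for 27 and 6. Rises of 2-fold or more thus lay mostly among genes of low level. Of the genes tested, 45 reached the minimum of 10 reads in no control library, so they could pass only as higher. Without them 1465 of 15703 were higher and 1585 lower, and their part in the 387 was not counted. Without control 2, PMCA 1, PMCA 2 or PMCA 3 the higher genes numbered 884, 961, 916 and 811, and without control 2, control 3, PMCA 2 or PMCA 3 the lower genes numbered 801, 1011, 1025 and 884. The mice have lower and higher animal numbers in the labels. With these 2 sets as a covariate, 1613 genes were higher and 1511 lower where control 4 was placed by its title, and 943 and 756 where it was placed by its source name. By source name the higher set holds only PMCA 3 and PMCA 4 and no control. The treatment term of that fit therefore compares PMCA 1 and PMCA 2 with the control mice.

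Groups of genes with a common role moved one way. Known targets of the transcription factor p53, ribosomal proteins, subunits of the respiratory chain and genes of interneurons were lower in PMCA mice. Nuclear noncoding RNAs and genes of MHC class II were higher. Canonical astrocyte genes moved in both directions and by less than 2-fold. The plot of level against change shows these groups, except the astrocyte genes, beside all genes. Where a list below has 0 genes called in a direction, limma-voom on the recovered reads also called 0 there. The number past an unadjusted p of 0.05 (limma) was then 0 as well, except for 3 ependymal markers that were lower, 2 p53 targets and 2 neurite genes that were higher, and 1 gene in each of the microglia, nuclear noncoding RNA, synapse, interferon and oligodendrocyte lists.

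**Figure D1:**
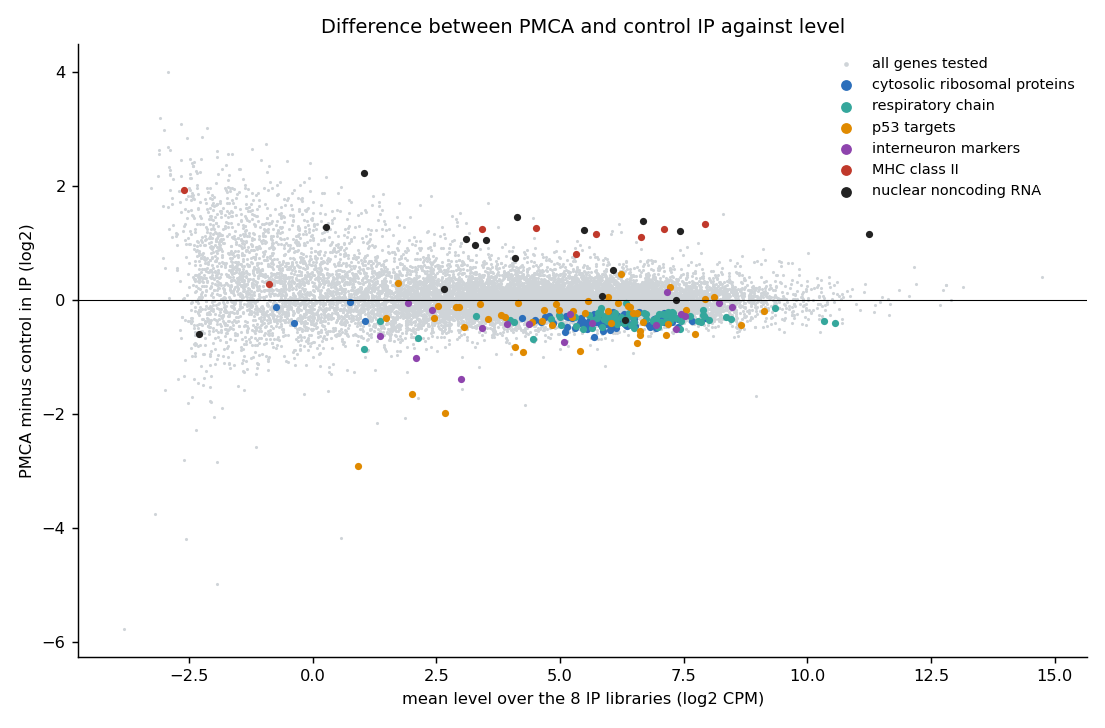
Mean level over the 8 IP libraries (x axis, log2 CPM) against the change in PMCA mice (y axis, log2 fold), 1 point for each of the 15748 genes tested, with 6 gene lists in colour. Ribosomal proteins and p53 targets lie below 0 for the most part, and nuclear noncoding RNAs and genes of MHC class II above it.

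The 8 libraries held 46.83 to 58.48 megareads in control mice (53.4 ± 4.92, SD, n = 4) and 48.07 to 55.15 megareads in PMCA mice (52.2 ± 3.08, SD, n = 4). The depths of the groups overlapped (two-sided exact permutation test, p = 0.714, smallest possible 0.0286). Pearson's r across genes was 0.985 to 0.9926 between control libraries, 0.9854 to 0.9928 between PMCA libraries and 0.9769 to 0.9853 between groups. Principal component 1 (40.8% of the variance) separated the groups, with controls at -31.3 to -25.1 and PMCA mice at 23.3 to 33.4. The second, with 16.5%, set control 4 (-34.5) and PMCA 4 (-20.2) apart from the others (-5.9 to 15.5). 2 mice, control 4 and PMCA 3, expressed Xist.

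Rpl22, the carrier of the tag, was far lower in PMCA mice. This gene (chromosome 4, 152324436 to 152334082, mm10) lay at 9.74, 9.92, 9.92 and 9.62 log2 CPM in control 1 to 4 and at 8.18, 8.03, 8.22 and 8.01 in PMCA 1 to 4. The groups were far apart (log2 fold -1.69, SE 0.0894, adjusted p = 1.92e-05 by limma). Rpl22 was lower in the lysate too, with a log2 fold of -0.88 (adjusted p = 0.000489 by limma). The value sums reads of the viral and the endogenous copy. The level of the tag carrier therefore differed with the treatment, and an effect of the pump on any RNA in the IP cannot be told apart from one of the lower Rpl22 level. Its paralog Rpl22l1, whose product can take the place of Rpl22 in the ribosome, had a log2 fold of -0.37 (adjusted p = 0.0943; 0.0487 without control 4).

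Atp2b2 (chromosome 6, 113743831 to 114042613, mm10), the mouse gene of PMCA2, lay at 9.89, 9.45, 9.24 and 9.52 log2 CPM in control mice and at 9.74, 9.70, 9.90 and 10.14 in PMCA mice. The ranges overlapped through control 1, and the difference (log2 fold 0.35, SE 0.143) did not pass (adjusted p = 0.113; 0.029 without control 1). How far reads of the human sequence were counted under the mouse gene is not known, so this value does not measure the transgene. The other plasma membrane calcium pumps did not pass either. Atp2b1 had a log2 fold of -0.11 (adjusted p = 0.639), Atp2b4 of 0.27 (0.187) and Atp2b3 of -0.35 (0.129; 0.0105 without PMCA 4).

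Targets of p53 were lower in PMCA mice. p53 is a transcription factor that DNA damage and other stress switch on, and it drives genes of cell cycle arrest, apoptosis and its own breakdown. Of 50 targets tested (51 in the files), 22 fell and 0 rose, with a median log2 fold of -0.247, where 10.1% of all genes were lower. The count was 15 to 25 when 1 mouse was left out.

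Cdkn1a (chromosome 17, 29090979 to 29100722, mm10), which encodes the cell cycle inhibitor p21, lay at 6.68, 6.90, 7.12 and 7.03 log2 CPM in control mice and at 6.40, 6.25, 6.16 and 5.92 in PMCA mice. No PMCA library reached the lowest control, and the log2 fold was -0.75 (SE 0.117, adjusted p = 0.0039). Gdf15, a stress-induced hormone, lay at 2.09, 2.50, 2.41 and 2.51 in control mice and at -0.56, -0.52, -0.74 and -0.32 in PMCA mice. Gdf15 fell by 2.91 (SE 0.156, adjusted p = 1.92e-05), and its difference is the largest of the list. Ckap2, a spindle protein, lay at 3.59, 3.76, 3.71 and 3.62 and at 1.49, 1.81, 1.79 and 1.70, and fell by 1.98 (SE 0.101, adjusted p = 1.92e-05). For Ckap2 and Gdf15 the gap between the groups was many times the spread within them.

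Pmaip1, which encodes the pro-apoptotic protein Noxa, fell by 1.64 on the log2 scale (adjusted p = 0.000289) and the microtubule regulator Psrc1 by 0.91 (0.00067). The receptor gene Eda2r fell by 0.89 (0.000347) and Gtse1, which restrains p53, by 0.83 (0.00196). The remaining genes of the list discussed here were chosen after their values were seen, as was Cdkn1a. Mdm2, the ligase that marks p53 for breakdown, fell by 0.62 (adjusted p = 0.00281), the nuclease gene Aen by 0.54 (0.00219) and cyclin G1, Ccng1, by 0.43 (0.00712). Bax, a pore-forming protein of apoptosis, had a log2 fold of -0.29 (adjusted p = 0.0727; 0.0343 without control 1), the death receptor Fas of -0.27 (0.214) and Sesn1 of -0.06. Trp53, the gene of p53 itself, lay at 4.18 ± 0.16 and 4.14 ± 0.11 log2 CPM (SD, n = 4 each; log2 fold -0.05, SE 0.0952, adjusted p = 0.763).

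p53 binds as a tetramer to DNA that holds 2 copies of a motif of 10 bases. The 300 bases around each gene's start (250 before and 50 after) in RefSeq's GRCm38.p6 annotation were searched for the p53 motif, named here without its degenerate letters, on both strands. A full site (2 motifs with a spacer of at most 13 bases) stood in 24 of 32851 windows (0.0731%) and a single motif or more in 2745 (8.36%). Among the 37 p53 targets with a window, 13 (35.1%) held a motif, 8 of the 19 that fell (42.1%) and 5 of the 18 that did not pass (27.8%). The full site was found in 1 of the 37, Cdkn1a. The windows are shown because they set targets that fell beside 2 that did not, Bax and Trp53, with the motif or full site in capitals and mm10 positions.
Cdkn1a, chr17:29090896-29090947, plus strand: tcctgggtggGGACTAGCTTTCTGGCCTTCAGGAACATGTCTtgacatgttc
Ckap2, chr8:22186003-22186032, minus strand: ctgtgtctgaAGACATGTCCtgacttgtca
Mdm2, chr10:117710925-117710954, minus strand: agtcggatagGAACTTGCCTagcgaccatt
Ccng1, chr11:40755452-40755481, minus strand: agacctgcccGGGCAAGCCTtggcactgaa
Aen, chr7:78895927-78895956, plus strand: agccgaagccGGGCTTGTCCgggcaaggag
Gtse1, chr15:85859945-85859974, plus strand: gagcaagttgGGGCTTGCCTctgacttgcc
Bax, chr7:45467080-45467109, minus strand: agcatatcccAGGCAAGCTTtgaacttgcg
Trp53, chr11:69580274-69580303, plus strand: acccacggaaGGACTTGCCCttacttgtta
A match is a description of these letters, and binding was not measured.

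**Figure D2:**
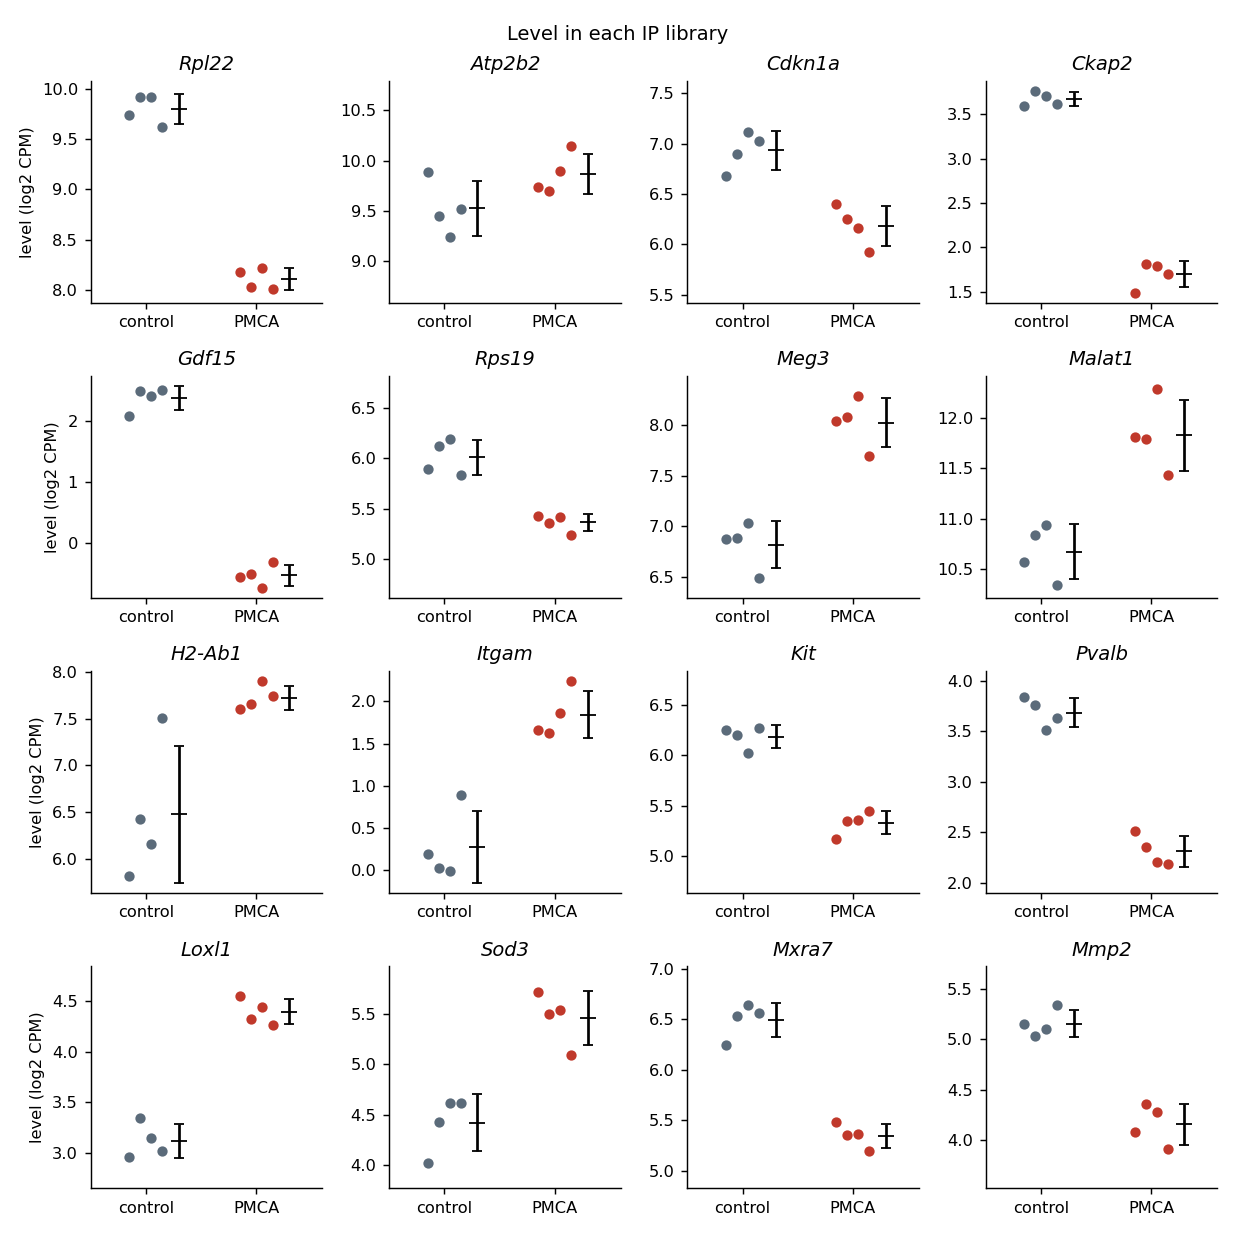
Level (y axis, log2 CPM) of 16 genes in each of the 8 IP libraries, 1 panel per gene, with dots for mice and a bar for mean and SD (n = 4 per group). The y axes differ between panels. Rpl22, Cdkn1a, Ckap2, Gdf15, Rps19, Kit, Pvalb, Mxra7 and Mmp2 lie lower in every PMCA library, and Meg3, Malat1, Itgam, Loxl1 and Sod3 higher.

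Genes of the translation machinery were lower in PMCA mice, where 10.1% of all genes were lower. Of 79 cytosolic ribosomal proteins tested, 65 fell and 0 rose, the median log2 fold was -0.382 and 0 members lay above 0. The count was 44 to 67 with 1 mouse left out. Rps19, a protein of the small subunit, lay at 5.89, 6.12, 6.19 and 5.83 log2 CPM in control mice and at 5.43, 5.36, 5.42 and 5.24 in PMCA mice (log2 fold -0.65, SE 0.0899, adjusted p = 0.00289). The groups did not overlap, and Rps19 had the largest fall of the list. Rps26 (-0.55), Rpl13 (-0.53) and Rpl32 (-0.51) also fell. The log2 folds of the list ran from -0.65 to -0.03, and 14 members did not pass. Rpl22, which is not counted in it, lay far outside that range. With the animal-number covariate by source name 40 fell, and without both mice that express Xist 43.

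Many messages of ribosomal proteins begin with a pyrimidine tract, through which mTOR controls their translation. A tract was counted where a C within 5 bases of the annotated start was followed by at least 5 pyrimidines. It stood in 10.2% of all windows and in 27 of 58 ribosomal protein genes with a window (46.6%). Of the 27 with a tract 19 fell (median log2 fold -0.365), and of the 31 without one 28 fell (-0.383). Among 1574 other genes with a tract 8.89% were lower and 10.8% higher, close to the shares of all genes. Starts with and without a tract are printed from 10 bases before to 20 bases after the annotated start, with the tract in capitals.
Rpl15, chr14:18270967-18270996, minus strand: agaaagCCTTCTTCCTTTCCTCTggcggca
Rpl14, chr9:120571507-120571536, plus strand: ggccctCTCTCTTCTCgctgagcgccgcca
Rpl7a, chr2:26910797-26910826, plus strand: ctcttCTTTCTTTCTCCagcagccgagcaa
Rpl13, chr8:123102340-123102369, plus strand: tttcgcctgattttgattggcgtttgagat
Rpl6, chr5:121204491-121204520, plus strand: acctcccgtcattgcttatagaccggaagc
Rpl15, Rpl14 and Rpl7a, with a tract, had log2 folds of -0.42, -0.42 and -0.33, and Rpl13 and Rpl6, without one, of -0.53 and -0.43. These genes were picked for their sequences after values were seen, and an annotated start can lie some bases from the true one.

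Other parts of protein synthesis followed. Of 52 translation factors 22 fell and 2 rose (median -0.214; 15 to 23 fell with 1 mouse left out, and 5 rose without PMCA 4). The elongation factor genes Eef1a1 and Eef1a2 fell by 0.40 and 0.64. Eif4ebp1, a repressor of cap-dependent translation that mTOR inactivates, lay at 3.10, 3.62, 3.71 and 3.66 log2 CPM in control mice and at 2.56, 2.61, 2.48 and 2.44 in PMCA mice (log2 fold -1.0, adjusted p = 0.00281). Its paralog Eif4ebp2 rose by 0.58 (adjusted p = 0.00597). Of 44 ribosome biogenesis factors 14 fell and 0 rose (-0.201). That count fell to 7 without control 2, control 3 or PMCA 3, to 8 without PMCA 1 and to 9 without PMCA 2.

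Mitochondrial and proteolytic genes were lower as well, where 10.1% of all genes were lower. All 81 nuclear-encoded subunits of the respiratory chain had a log2 fold below 0, and 58 of them fell (median -0.318; 30 without control 2, 35 without control 3, at most 55 with another mouse left out, 20 with the animal-number covariate by source name and 24 without both mice that express Xist). Cox6a2 and Cox6b2, subunits of cytochrome c oxidase, fell by 0.85 and 0.68 and Ndufb6 of complex I by 0.51. Of 77 mitochondrial ribosomal proteins 36 fell and 0 rose (median -0.229; 21 without control 2, 14 with that covariate and 11 without those mice), among them Mrpl42 by 0.55. The proteasome, which degrades tagged proteins, had 23 of 37 subunits lower and 0 higher (-0.197), led by Psmb1 (-0.36). Its count was 10 without control 2, 12 without control 3, 14 without control 4 or PMCA 3, 15 without PMCA 1 and 11 without PMCA 2.

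Of 27 cytosolic chaperones 16 fell and 0 rose (median -0.309; 10 without control 3). The heat shock protein gene Hspa8 lay at 10.52, 10.39, 10.57 and 10.65 log2 CPM in control mice and at 9.94, 10.04, 10.08 and 9.86 in PMCA mice (log2 fold -0.56, adjusted p = 0.00407), with no overlap. Hspb1 fell by 0.83, Hsp90aa1 by 0.56 and the chaperonin subunit Cct5 by 0.43. The unfolded protein and integrated stress response, by contrast, had 4 of 29 genes lower and 0 higher (-0.112; 2 without control 3, PMCA 1 or PMCA 3), a share near that of all genes.

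**Figure D3:**
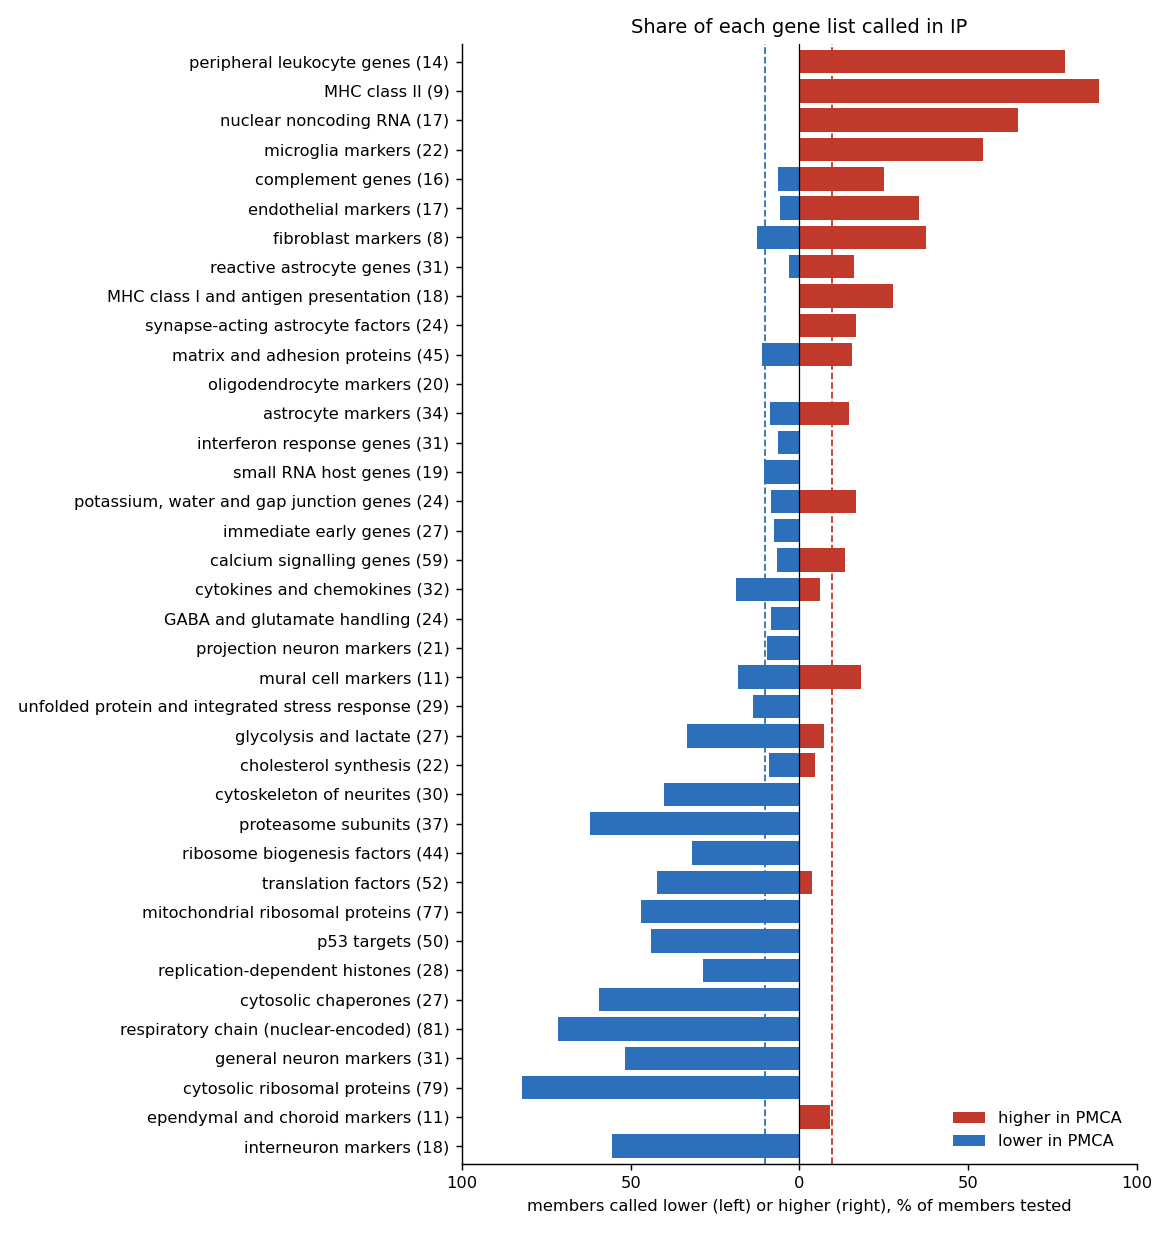
Share of tested members called lower (left of 0) and higher (right of 0) in PMCA mice, in percent, for each gene list with at least 8 members tested. Dashed lines mark the shares of all genes, 10.1% lower and 9.54% higher. The respiratory chain, ribosomal protein, proteasome and chaperone lists reach far past the line on the lower side, and the nuclear noncoding RNA, MHC class II and microglia lists past the line on the higher side. The leukocyte bar covers only the 14 of 25 genes that passed the filter on low reads.

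RNAs that stay in the nucleus were higher in the IP of PMCA mice. Of 17 nuclear noncoding RNAs tested, 11 rose and 0 fell (median log2 fold 1.055, 10 or 11 with 1 mouse left out), where 9.54% of all genes were higher. Of the 17, whether they rose or not, 11 were depleted in the IP against the lysate by a log2 of at least 1 and 1 was enriched. The median log2 ratio of IP over lysate was -1.72. Meg3, an imprinted long noncoding RNA, lay at 6.87, 6.88, 7.03 and 6.49 log2 CPM in control mice and at 8.04, 8.08, 8.29 and 7.70 in PMCA mice (log2 fold 1.21, SE 0.137, adjusted p = 0.00168). Malat1, an RNA of nuclear speckles, lay at 10.57, 10.84, 10.94 and 10.34 and at 11.81, 11.79, 12.29 and 11.43 (log2 fold 1.15, SE 0.189, adjusted p = 0.00437). Neither gene had overlapping groups, and in each group the fourth mouse was the lowest.

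A330023F24Rik rose by 1.47, Snhg11 by 1.38, the antisense RNA Kcnq1ot1 by 1.23 and the paraspeckle RNA Neat1 by 0.74. The summed level of the list was 1869 to 2626 CPM in control mice and 3608 to 6695 CPM in PMCA mice. Malat1 alone made up most of that sum in each library. The list also holds Xist, which lay at 9.11 log2 CPM in PMCA 3 and at 4.98 in control 4. In the lysate Kcnq1ot1 was the 1 gene of the list that passed (log2 fold 0.78, adjusted p = 0.0371), while Malat1 differed by 0.05 and Meg3 by 0.17 on the log2 scale. Rn45s, the precursor of ribosomal RNA that is made in the nucleolus, lay at 8.42, 8.58, 8.77 and 8.86 in control IP and at 9.28, 9.35, 9.94 and 9.67 in PMCA IP (log2 fold 0.90, adjusted p = 0.00489). Its level can also depend on how ribosomal RNA was kept out of the libraries, which was not tested. Among all 747 genes annotated as long noncoding RNA, 161 were higher and 9 lower, and among the 78 of these with a mean of at least 3 log2 CPM, 20 and 2.

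Long genes rose more often and short genes fell more often. The genes with a mean of at least 3 log2 CPM were split into 5 bins by gene span, the distance from start to end with introns. In the bin of 123 to 9470 bases 75 of 2153 genes were higher (3.48%) and 477 lower (22.2%), with a median log2 fold of -0.126. In the bin of 86875 to 2390387 bases 312 of 2153 were higher (14.5%) and 145 lower (6.73%), with a median of 0.043. The bins between lay in order, and that order held when the reads were scaled by library totals or by quantiles. Over all genes tested, low ones included, the lower share also ran in order, from 14.4% in the shortest bin to 5.9% in the longest. The higher share did not, with 7.76% in the shortest bin, 6.64% in the second and 13.9% in the longest.

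The gradient was also present when ribosomal, mitochondrial ribosomal, respiratory, proteasome and nuclear noncoding genes were left out. The shortest bin then had 76 genes higher and 361 lower and the longest 304 and 141. Genes enriched in the IP over the lysate (log2 of at least 1) showed it in the higher genes, from 32 of 391 in their shortest bin to 103 of 390 in their longest. Genes depleted in the IP by as much had 65 of 151 lower in their shortest bin and 10 to 14 in each of the others. These 2 splits by enrichment kept the ribosomal and other lists in. Of the 79 cytosolic ribosomal proteins tested 53 were depleted in the IP, and their part in the 65 was not tested. GC content of the promoter window, which is no measure of the transcript, went from 112 higher and 291 lower in its lowest bin to 207 and 130 in its highest. Over all genes tested the higher share was 11.9% in the lowest bin, 6.97% in the third and 11.5% in the highest, so it showed no rise with GC content. Transcript length and GC content were not analysed here, and the part of either in the changes of the gene lists was not tested.

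**Figure D4:**
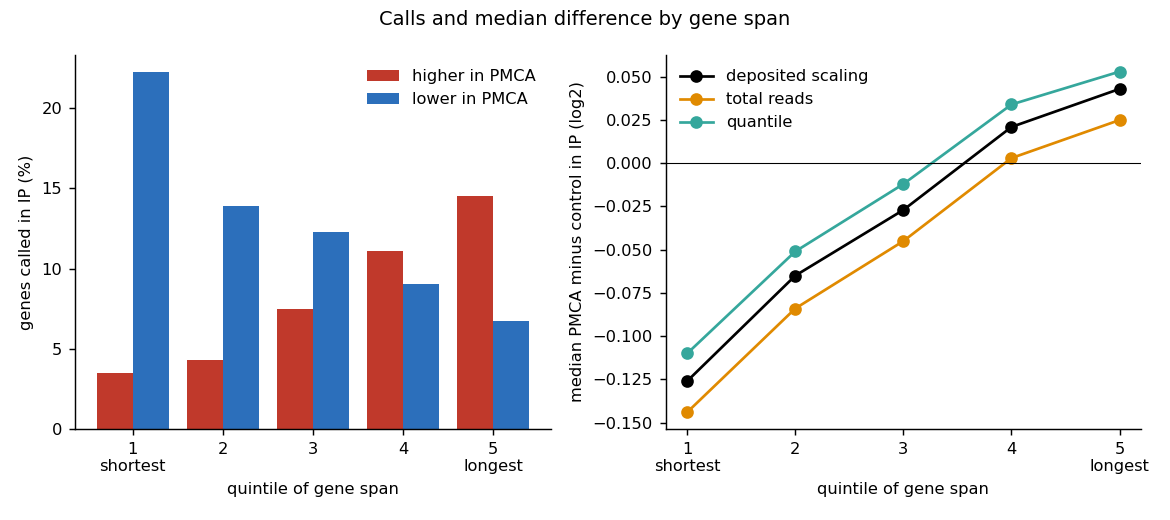
Left, share of genes called higher and lower in PMCA mice (y axis, percent) in 5 bins of gene span (x axis), for genes with a mean of at least 3 log2 CPM. Right, median log2 fold of each bin under 3 scalings. The share of lower genes runs from 22.2% in the shortest bin to 6.73% in the longest and the share of higher genes from 3.48% to 14.5%.

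Genes of MHC class II, which presents peptides to T cells, were higher in PMCA mice, where 9.54% of all genes were higher. They were grouped after their values were seen, and 8 of the 9 tested rose (median log2 fold 1.246; 4 without PMCA 3). With the animal-number covariate 8 rose where control 4 was placed by its title and 0 where it was placed by its source name, which ends every call of the group. H2-Ob, 1 of the 8, reached the filter on low reads in no control library, so it had to differ, and without it 7 of 8 rose (median 1.204). The invariant chain gene Cd74 lay at 6.66, 7.35, 6.83 and 8.23 log2 CPM in control mice and at 8.48, 8.56, 8.70 and 8.66 in PMCA mice (log2 fold 1.33, SE 0.279, adjusted p = 0.0113). H2-Ab1, a class II chain, lay at 5.81, 6.42, 6.16 and 7.51 and at 7.60, 7.66, 7.90 and 7.74 (1.25, SE 0.291, adjusted p = 0.017; 0.0501 without PMCA 3). Control 4 was the highest control for both and came near the PMCA mice, which were close together.

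Ciita, the transcription factor that switches on class II genes, rose by 1.27 (adjusted p = 0.0169), H2-DMb1 by 1.25 (0.0163) and H2-Aa by 1.12 (0.0173; 0.051 without PMCA 3). Without control 4 the median of the group was 1.538, again with 8 of 9 higher. In the lysate 0 of 10 genes of the group passed (limma), 8 were higher at an unadjusted p under 0.05, and the median log2 fold was 0.873. Cd74 and H2-Ab1 had log2 ratios of IP over lysate of -0.27 and 0.34, and Ciita of 0.97 (adjusted p = 0.000353, limma). Of the 9 tested, 0 were enriched in the IP by a log2 of at least 1. By as much 2 were depleted, H2-Ob among them (-4.06).

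Microglial markers were higher in PMCA mice as well, from low levels, where 9.54% of all genes were higher. Of 22 microglial markers, 12 rose and 0 fell (median 0.955; 7 without control 2 or PMCA 2). Itgam, an integrin chain of myeloid cells, lay at 0.18, 0.02, -0.02 and 0.89 log2 CPM in control mice and at 1.66, 1.62, 1.86 and 2.24 in PMCA mice (1.58, adjusted p = 0.00323). Olfml3 rose by 1.84, Csf1r, the receptor that microglia need to survive, by 1.16 and the lipid receptor Trem2 by 1.16. The groups of Itgam did not overlap. Itgam and Csf1r were depleted in the IP, with log2 ratios of IP over lysate of -4.86 and -5.08.

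Some defining microglial genes did not pass. P2ry12 had a log2 fold of -0.27 (adjusted p = 0.13). Cx3cr1 lay at 1.0, 1.40, 1.44 and 1.47 in control mice and at 2.24, 2.22, 2.36 and 5.19 in PMCA mice (adjusted p = 0.0664; 0.00349 without PMCA 4), and Tmem119 at 0.05, 0.21, 0.47 and 0.14 and at 0.85, 0.55, 0.80 and 3.82 (adjusted p = 0.163). PMCA 4 alone was far higher for both. The summed level of the microglial list was 115.1 to 144.2 CPM in control mice, 172.3 to 179.2 CPM in PMCA 1 to 3 and 246.7 CPM in PMCA 4.

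Among 25 leukocyte genes in the files 14 passed the filter on low reads, and 11 of these were called higher (7 without PMCA 3). All 14 met the read minimum in at least 1 control library. The filter asks for 4 of the 8 libraries, so high PMCA libraries could bring a gene past it, and this count does not stand as support. Of the lymphocyte genes, Cd3e, Cd79a, Cd79b and Ms4a1 did not pass the filter. Cd8a, a T cell coreceptor gene, did and was called higher, at -3.95, -3.87, -2.36 and -1.80 log2 CPM in control mice and -1.60, -0.90, -0.52 and 1.33 in PMCA mice (adjusted p = 0.0272; up to 0.0734 without control 1, control 2 or PMCA 3). Cd33, a myeloid surface receptor, lay at -1.12, -1.23, -1.46 and -1.08 in control mice and at 0.74, 0.70, 0.91 and 1.09 in PMCA mice (adjusted p = 0.000562). The summed level was 18.76 to 31.57 CPM in control mice, 33.55 to 39.98 CPM in PMCA 1 to 3 and 92.79 CPM in PMCA 4. The class II genes were as high in PMCA 1 to 3 as in PMCA 4, with sums of 843.3, 890.3, 1024 and 981.8 CPM against 264.0, 407.6, 306.3 and 770.6 CPM in control 1 to 4. Control 4, the highest control for class II, had a leukocyte sum of 24.67 CPM, within the range of the other controls. The part of microglia or leukocytes in the class II difference was not tested. In these bulk libraries fewer or more cells of a type and less or more RNA per cell cannot be told apart.

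**Figure D5:**
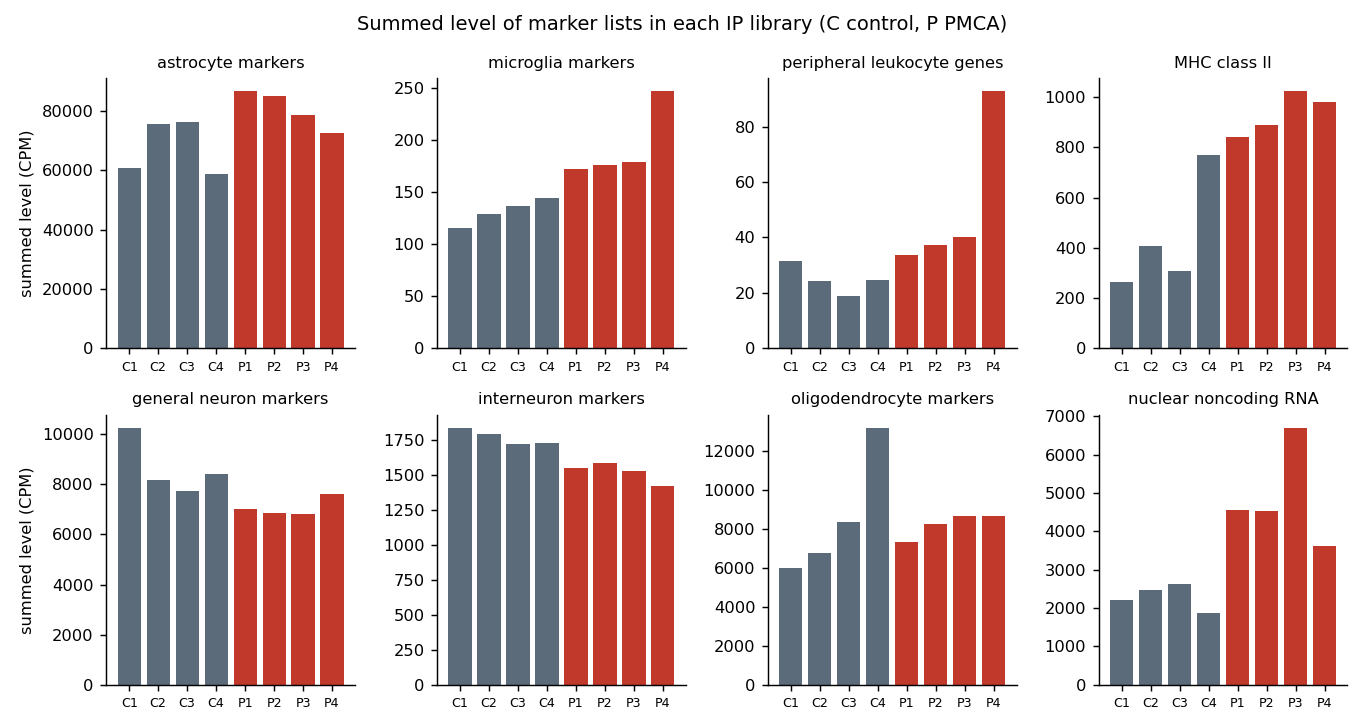
Summed level (y axis, CPM) of 8 gene lists in each of the 8 IP libraries, with 1 panel per list. PMCA 4 stands at 246.7 CPM for microglial markers and 92.79 CPM for leukocyte genes, above the other 3 PMCA mice, and control 4 at 770.6 CPM for MHC class II, above the other controls.

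Neuronal genes were lower in the IP of PMCA mice, where 10.1% of all genes were lower. Among 31 general neuronal markers, 16 fell and 0 rose (median -0.338; 12 to 20 lower with 1 mouse left out), and of 18 interneuron markers 10 fell and 0 rose (-0.404; 7 to 9). Of 21 markers of projection neurons, the most numerous cells of the striatum, 2 fell and 0 rose (-0.105). That share (9.52%) is near the share of all genes, and the count was 0 without control 2, control 4, PMCA 1 or PMCA 3. It was 1 without PMCA 2 and 4 without control 3. With the animal-number covariate by source name 9 general and 6 interneuron markers fell, and without both mice that express Xist 7 and 6.

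Not all neuronal genes were depleted by the pulldown. Of the 18 interneuron markers 11 were enriched in the IP over the lysate (log2 of at least 1), with log2 ratios of 2.24 for Chat, 2.04 for Sst, 1.97 for Slc5a7 and 1.86 for Npy, and 1 was depleted by as much. Of the 31 general markers 0 were enriched and 5 depleted, and of the 21 projection neuron markers 0 and 20. All 34 astrocyte markers were enriched.

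Pvalb, a calcium buffer of fast-spiking interneurons, lay at 3.84, 3.76, 3.51 and 3.63 log2 CPM in control mice and at 2.51, 2.35, 2.2 and 2.18 in PMCA mice (log2 fold -1.38, SE 0.109, adjusted p = 0.000289). Pthlh, another gene of these cells, fell by 1.01, and their potassium channel gene Kcnc2 by 0.73. Gad1, for GABA synthesis, fell by 0.65. Of the cholinergic genes Chat fell by 0.44 and Slc5a7 by 0.50. Sst, a peptide of another interneuron class, lay at 8.24 ± 0.04 and 8.19 ± 0.16 log2 CPM (SD, n = 4 each; adjusted p = 0.703), and Npy of the same class fell by 0.25 (adjusted p = 0.0237, up to 0.0642 without control 2, control 3 or PMCA 2).

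The receptor kinase gene Kit, which striatal interneurons express among other cells, lay at 6.25, 6.20, 6.02 and 6.27 in control mice and at 5.17, 5.35, 5.36 and 5.45 in PMCA mice (log2 fold -0.85, adjusted p = 0.000708). The groups of Kit and Pvalb were both clear of each other. Neurofilament heavy chain, Nefh, fell by 0.86. Of 30 genes of the neurite cytoskeleton 12 fell and 0 rose (-0.178), where 10.1% of all genes were lower. The summed level of the neuronal list was 7746 to 10250 CPM in control mice and 6832 to 7626 CPM in PMCA mice, and that of the interneuron list 1718 to 1834 and 1418 to 1587 CPM. Both sums were lower in each PMCA mouse than in each control, as were those of the respiratory chain (12370 to 13120 CPM against 9160 to 10940 CPM). The part of neuronal RNA in the falls of ribosomal and respiratory genes was not tested.

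Astrocyte genes themselves split. All 34 markers were tested, 5 rose and 3 fell, and the median was 0.059, so the shares lay near those of all genes (9.54% higher, 10.1% lower). The gene of the sodium pump subunit Atp1b2 lay at 8.87, 9.14, 9.34 and 9.18 log2 CPM in control mice and at 10.03, 9.87, 9.84 and 9.47 in PMCA mice (0.67, SE 0.132, adjusted p = 0.00869). Kcnj10, the Kir4.1 potassium channel, rose by 0.54 (adjusted p = 0.0113), the hedgehog effector Gli3 by 0.53 (0.0105), the transcription factor Sox9 by 0.49 (0.00429) and the folate enzyme Aldh1l1 by 0.44 (0.00793). The 3 that fell were Agt, for angiotensinogen (-0.69), the mitochondrial carrier Slc25a18 (-0.58) and the tight junction gene Cldn10 (-0.34). The fall of Cldn10 passed only when all mice were used or control 1 or control 4 was left out (adjusted p = 0.0444, up to 0.121).

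Gfap, the filament protein of reactive astrocytes, lay at 11.31, 11.86, 12.07 and 12.23 in control mice and at 12.41, 12.28, 12.60 and 12.53 in PMCA mice. Its difference (0.59, SE 0.189) missed the threshold (adjusted p = 0.0527; 0.0325 without control 4), although the groups did not overlap. The glutamate transporter Slc1a2 had a log2 fold of 0.40 (SE 0.221, adjusted p = 0.223) and the GABA transporter Slc6a11 of -0.10 (SE 0.0935, adjusted p = 0.488). The summed level of the list was 58640 to 76270 CPM in control mice and 72600 to 86750 CPM in PMCA mice, which overlap. Without PMCA 4, 8 markers rose.

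Larger changes lay among less known genes enriched in the IP. Of 1960 such genes with a mean of at least 3 log2 CPM, 312 were higher (15.9%) and 104 lower (5.31%), where 881 (8.15%) and 1384 (12.8%) of all 10811 genes of that level were. Loxl1, which crosslinks elastin, lay at 2.96, 3.34, 3.14 and 3.02 log2 CPM in control mice and at 4.55, 4.33, 4.44 and 4.27 in PMCA mice (log2 fold 1.28, SE 0.102, adjusted p = 0.000289). Sod3, an extracellular superoxide dismutase, lay at 4.02, 4.43, 4.62 and 4.62 and at 5.72, 5.50, 5.54 and 5.09 (1.04, SE 0.159, adjusted p = 0.00365). Flnc, an actin crosslinker, and A2m, a protease inhibitor, each rose by 1.21 (0.0143 and 0.0105), with control 4 the highest control for both.

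The falls were led, after Rpl22, by Mxra7, at 6.25, 6.53, 6.64 and 6.56 in control mice and 5.48, 5.35, 5.36 and 5.19 in PMCA mice (log2 fold -1.15, SE 0.0933, adjusted p = 0.000289). Mmp2, a gelatinase that cuts matrix collagen, lay at 5.15, 5.03, 5.10 and 5.34 and at 4.08, 4.36, 4.28 and 3.91 (-1.0, SE 0.109, adjusted p = 0.0013). Loxl1, Sod3, Mxra7 and Mmp2 each had groups that did not overlap. The urate transporter gene Slc2a9 fell by 0.82 and 1700007K13Rik by 0.94. Rises of Gbp8, Klk6 and Lars2 (1.33, 1.17 and 0.92) were each lost in 6 or 7 of the 8 fits that leave out 1 mouse, with adjusted p up to 0.0902, 0.0814 and 0.0885.

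Genes that handle calcium did not move as a group. Of 59 tested, 8 rose and 4 fell (median -0.073), shares near those of all genes. The ryanodine receptor gene Ryr3 had the largest rise (0.64, adjusted p = 0.0172; 0.05 without control 2), followed by the calcium channel gene Cacna1d (0.52, adjusted p = 0.0133). Also higher was Itpr2, the main IP3 receptor of astrocytes, at 7.17, 7.45, 7.51 and 7.31 log2 CPM in control mice and at 7.69, 7.73, 7.75 and 7.82 in PMCA mice (0.39, SE 0.0794, adjusted p = 0.0104). The groups of Itpr2 did not overlap. Calcium-regulated transcription factors Nfatc2 and Nfatc3 rose by 0.32 and 0.29 (adjusted p = 0.0237 and 0.017, up to 0.0695 and 0.056 without control 2 or PMCA 3, and for Nfatc2 also control 3 or PMCA 2), while the phospholipase Plcb4 fell by 0.35. The higher count was 4 without control 2 or PMCA 3 and 5 without PMCA 2, and the lower count 2 without PMCA 1, PMCA 2 or PMCA 3.

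Of 24 genes of GABA and glutamate handling 2 fell and 0 rose (median -0.085), Slc25a18 and the aspartate aminotransferase Got1 (-0.55). Of 24 potassium, water and gap junction genes 4 rose and 2 fell (0.015). They were Atp1b2, Kcnj10, the connexin gene Gjb2 (0.45) and the calcium-activated potassium channel Kcnn3 (0.40) on the higher side, and 2 other sodium pump subunits on the lower. Without control 2, PMCA 1, PMCA 2 or PMCA 3, 1 fell. Over all genes tested, 9.54% were higher and 10.1% lower.

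Immune and matrix genes gave mixed counts, where 9.54% of all genes were higher and 10.1% lower. Higher and lower shares were 16.1% and 3.23% for reactive astrocyte genes, 25.0% and 6.25% for complement and 6.25% and 18.8% for cytokines and chemokines. They were 15.6% and 11.1% for matrix and adhesion genes. For MHC class I and synapse-acting factors 27.8% and 16.7% were higher, and for interferon response genes 6.45% were lower. Of 31 reactive astrocyte genes 5 rose and 1 fell (median 0.322), with 1 higher without control 3, 2 without PMCA 3, 3 without control 2 and 9 without control 4. Its lower count was 2 without control 1, PMCA 2 or PMCA 4. Of 16 complement genes 4 rose and 1 fell (0.527), with 1 or 2 higher without any mouse other than control 4 and 8 without that one. MHC class I and antigen presentation, which also holds class II genes, had 5 of 18 higher and 0 lower (0.297), with 2 without PMCA 3 and 11 without control 4. Interferon response genes had 0 higher and 2 lower of 31 (0.034; 6 lower without PMCA 4, 0 without any other mouse but control 1). Of 32 cytokines and chemokines 2 rose and 6 fell (-0.081), with 1 higher without any mouse other than control 2 or control 4. Of 45 matrix and adhesion genes 7 rose and 5 fell (0.143), with 3 or 4 higher without any mouse but control 4 and PMCA 4, and 12 without PMCA 4. Of 24 synapse-acting factors 4 rose and 0 fell (0.237), with 0 without PMCA 1 or PMCA 3, 1 without PMCA 2, 2 without control 1, control 2 or control 3 and 8 without PMCA 4.

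Endothelial and fibroblast markers were called higher in larger shares (35.3% and 37.5%) than all genes (9.54%), over few genes each. Of 17 endothelial markers 6 rose and 1 fell (median 0.511; 3 higher without PMCA 3, 2 lower without control 1), though their summed level overlapped, at 130.3 to 170.0 CPM and 147.9 to 159.7 CPM. Mural cell markers had 2 higher and 2 lower of 11 (-0.111), with 1 higher without control 3, PMCA 1 or PMCA 3 and 1 lower without any mouse other than control 4, PMCA 3 or PMCA 4. Fibroblast markers had 3 and 1 of 8 (0.44; 2 lower without PMCA 4). Oligodendrocyte markers had 0 called of 20 (0.121; 7 higher without control 4, whose sum was 13200 CPM against 5996 to 8384 CPM in the other controls). Ependymal and choroid markers had 1 higher and 0 lower of 11 (-0.382), with 0 higher without control 3, PMCA 2 or PMCA 3 and 3 lower without PMCA 2.

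Glycolysis and lactate genes had 2 higher and 9 lower (33.3%) of 27 (median -0.151; 5 lower without PMCA 1), with 1 higher without control 2, PMCA 1, PMCA 2 or PMCA 3. Cholesterol synthesis had 1 and 2 of 22 (-0.153), with 5 lower without control 1 and 0 lower without any mouse other than control 1, PMCA 3 or PMCA 4. Immediate early genes had 0 higher and 2 lower of 27 (-0.034; 0 lower without control 2, control 3, PMCA 2 or PMCA 3, and 1 without control 1 or PMCA 1). Hosts of small RNAs had 0 and 2 of 19 (0.024), and small structured RNAs 1 and 0 of 5 (-0.081). Replication-dependent histone genes, whose messages lack a poly(A) tail, had 0 higher and 8 lower (28.6%) of 28 (-0.307). Their count was 1 without control 2, 3 without PMCA 1 or PMCA 3, 4 without control 1 or control 4 and 5 without PMCA 2 or PMCA 4. Over all genes tested, 9.54% were higher and 10.1% lower.

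The IP change was then set against that in the lysate of the same mice. In the lysate 72 of 16306 genes (0.442%) passed, 59 higher (0.362%) and 13 lower (0.0797%). Of the 3088 genes called in the IP, 3059 were tested in the lysate and 53 were called there in the same direction. A test of the difference between the 2 effects over all 16 libraries called 339 of 16673 genes (2.03%), 162 higher (0.972%) and 177 lower (1.06%) in the IP than the lysate predicts. It did not pair the IP and lysate of a mouse, and the differences given for single genes come from it. With each mouse as a block the counts were 278 higher and 188 lower, and with total reads in place of scaling factors 120 and 236. The number moved widely, from 23 to 456 genes called in all, when 1 mouse was left out. The 456 were called without PMCA 4 and the 23 (14 higher, 9 lower) without control 2. Without control 1, control 3, PMCA 1, PMCA 2 and PMCA 3 the higher counts were 80, 45, 23, 16 and 25 and the lower counts 84, 74, 18, 20 and 29, and without control 4 they were 117 and 109.

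Of the 339 genes, 318 were also called in the IP comparison with the same sign, 160 higher and 158 lower. Kit had the difference of its IP fold of -0.85 from the lysate value of 0.06 (adjusted p = 0.000265, 0.000355 to 0.00548 with 1 mouse left out). Spp1, for osteopontin, lay at 2.36, 2.52, 2.33 and 2.30 log2 CPM in control IP and at 0.07, 0.22, 0.22 and 0.36 in PMCA IP, with a lysate log2 fold of 0.05 (difference -2.21, adjusted p = 0.000265). Igf2, the growth factor, lay at 3.79, 3.80, 3.78 and 3.80 and at 2.13, 1.98, 2.12 and 2.71, with a lysate log2 fold of -0.10 (difference -1.46, adjusted p = 0.00168). These genes had clearly lower IP levels beside lysate levels that hardly moved.

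Vtn, for vitronectin of the matrix (difference -1.59, adjusted p = 0.000265), the sugar phosphate transporter Slc37a2 (-1.13, 0.00168) and Rpl22 (-0.81, 0.00384) gave further falls. Of these, Rpl22 was also lower in the lysate (log2 fold -0.88), where Vtn had -0.06 and Slc37a2 0.19. On the higher side were 9430020K01Rik (1.44, 7.25e-06), Olfml3 (1.90, 0.00353) and Cd33 (1.67, 0.00248). The differences of Kit, Spp1, Igf2, Vtn, Slc37a2, Rpl22, 9430020K01Rik, Olfml3 and Cd33 passed in each of the 8 fits that leave out 1 mouse. By log2 ratio of IP over lysate, Vtn (-3.735), Cd33 (-3.13), Olfml3 (-3.12) and Spp1 (-1.82) were depleted in the IP. Of the rest, Rpl22 was at 1.80, Slc37a2 at 0.94, Kit at 0.61, Igf2 at -0.35 and 9430020K01Rik at -0.36.

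Others passed with all mice but not without some. Meg3 (difference 1.03, adjusted p = 0.0124) missed without control 2, PMCA 1 or PMCA 2 (up to 0.0645), and Malat1 (1.10, 0.0355) without any mouse other than PMCA 4 (up to 0.134). Ckap2 (-1.04, 0.0166) and Pmaip1 (-1.46, 0.0176) missed without control 2, control 3, PMCA 1 or PMCA 3 (up to 0.076 and 0.0785), and Pvalb (-1.03, 0.0252) without any mouse other than PMCA 3 or PMCA 4 (up to 0.0904). The difference for Cdkn1a was 0.05 (adjusted p = 0.925), with a lysate log2 fold of -0.81 (adjusted p = 0.0403) beside -0.75 in the IP. In the difference test 4 of 51 p53 targets, 3 of 79 ribosomal proteins, 5 of 31 general neuronal and 5 of 18 interneuron markers were lower, where 1.06% of all genes were. On the higher side were 8 of 18 nuclear noncoding RNAs and 6 of 22 microglial markers (2 by limma-voom), where 0.972% of all genes were.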

How the data were processed

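Values were the log2 CPM of 20730 genes that the authors deposited for each library. Per the submitters' processing notes, STAR, HTSeq, edgeR, limma and the mm10 build were used, with versions, roles and settings not stated in the labels. The prior count averaged 0.25, and with it undone 331680 of 331680 values were whole reads within 0.001. Names matched RefSeq's GRCm38.p6 annotation by symbol (19546) or synonym (1057), 127 did not match, and 26 names like dates or shared names were left out of naming.

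Each gene with at least 10 reads in at least 4 libraries was fitted with limma 3.58.1 (R 4.3.3) on the log2 scale, with empirical Bayes moderation along a mean-variance trend. Tests were two-sided, adjusted after Benjamini-Hochberg over all genes tested, at a threshold of 0.05. Scripts were tested on simulated data. IP and lysate of 1 mouse were tied through the titles. Their deviations from group means correlated at 0.11 to 0.33, against -0.2 to 0.08 for different mice. Named genes were the virus genes, the 12 of smallest adjusted p, the 12 largest rises and falls, the 10 largest among IP-enriched genes, up to 5 per list and 8 per direction of the difference test, with minimum mean 3 log2 CPM where size ranked them. Others named were chosen after their values were seen, and the comparison and the 39 lists were chosen with earlier results of these data known. One label gives control 4 another animal number. Spliced length, GC of transcripts and proteins were not used here, and a few genes that the rule names are not reported here.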

Additional observations from a re-analysis of the deposited data

Results flagged for a closer look

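In a group of 4 mice, the highest or lowest was marked where its gap to the next, as a share of the group's range, exceeded Dixon's critical value. Chance marks about 1 in 20 groups, and 21 marks arose from 250 groups of the 113 genes and 12 summed lists checked, 10 of them in PMCA 4. PMCA 4 was highest for the summed microglial markers (246.7 CPM) and leukocyte genes (92.79 CPM), and for Cx3cr1 (5.19 log2 CPM), Tmem119 (3.82), Atp2b1 (9.95), Atp2b3 (6.63), Fas (4.01) and Perm1 (3.44), and lowest for Sox9 (7.94) and Bax (4.85). PMCA 3 was marked for Xist (9.11), Rpl7a (7.27) and Cox6a2 (0.48), and control 4 for Xist (4.98), Cox6b2 (4.95) and Kcnn3 (6.38). Control 1 was marked for 9430020K01Rik (7.85), 1700007K13Rik (3.96), Eif4ebp1 (3.10), Sgca (2.36) and Cx3cr1 (1.0).

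The contrast of PMCA with control mice differed between the IP and the lysate of the same mice by a test of that difference (limma) for 30 of the genes named. Lower in the IP, as log2 differences, were Spp1 (-2.21), Vtn (-1.59), Igf2 (-1.46), Pmaip1 (-1.46), Slc37a2 (-1.13), Ckap2 (-1.04), Pvalb (-1.03), Pthlh (-0.95), Kit (-0.91), Rpl22 (-0.81), Nefh (-0.74), Slc5a7 (-0.68), Gad1 (-0.60), Eef1a2 (-0.54), Chat (-0.52), Mdm2 (-0.51), Got1 (-0.44), Hsp90aa1 (-0.39) and Rpl6 (-0.37). Higher were Olfml3 (1.90), Cd33 (1.67), 9430020K01Rik (1.44), A330023F24Rik (1.33), Itgam (1.25), Snhg11 (1.12), Malat1 (1.10), Meg3 (1.03), Rn45s (1.03), Trem2 (0.87) and Perm1 (0.81). With 1 mouse left out, 9 of the 30 passed in each of 8 fits (9430020K01Rik, Cd33, Igf2, Kit, Olfml3, Rpl22, Slc37a2, Spp1 and Vtn). The call was lost in 8 fits for Hsp90aa1 (adjusted p 0.0549 to 0.141, limma), in 7 for Itgam, Malat1 and Trem2, in 6 for Pvalb, in 5 for Perm1 and in 4 for Ckap2, Eef1a2, Gad1, Got1, Mdm2, Pmaip1 and Rn45s. For the other 8 it was lost in 1 to 3.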

How the results depend on the processing

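Over 3997 values of 212 genes in the IP comparison under other settings, 3563 kept direction and side of the threshold, 423 lost and 11 gained the call, and 0 reversed. In the difference test 1 reversed, Slc1a2, at -0.619 with quantile normalization (adjusted p = 0.0271, limma) against 0.09, and the cause was not tested. Counts of higher and lower genes in the IP were 1397 and 1804 with total reads, 1326 and 1446 with quantile normalization, 1511 and 1604 with limma-voom and 1301 and 1278 without the trend. Without both mice that express Xist they were 656 and 533, with 43 ribosomal proteins, 24 respiratory, 11 mitochondrial ribosomal, 7 neuronal and 6 interneuron genes lower. With animal numbers by source name as a covariate they were 943 and 756, with 40, 20, 14, 9 and 6 lower and 0 MHC class II genes higher. The difference test called 339 genes (162 higher, 177 lower), against 43 without the Xist mice (22, 21), 252 with quantile normalization (106, 146), 242 with no filter on low genes (108, 134) and 466 with the replicate block (278, 188). With 1 mouse left out, the IP gave 811 to 1756 higher and 801 to 1817 lower genes, 15 to 25 p53 targets, 44 to 67 ribosomal proteins, 30 to 55 respiratory, 21 to 38 mitochondrial ribosomal, 12 to 20 neuronal and 7 to 9 interneuron genes lower, and 10 to 11 nuclear RNAs, 7 to 15 microglial and 4 to 8 class II genes higher. The difference test then called 23 to 456. Fits with fewer mice have fewer degrees of freedom, and otherwise the cause was not tested. Low genes, such as most microglial markers, rest on few reads in the IP.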

Other observations

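Sgca, the gene of a muscle sarcoglycan, lay at 2.36, 3.12, 3.07 and 3.03 log2 CPM in control IP and at 0.84, 0.82, 0.99 and 0.67 in PMCA IP (log2 fold -2.07, adjusted p = 0.000347, limma). Its level was low, and the groups did not overlap. In the opposite direction, 9430020K01Rik lay at 7.85, 7.40, 7.44 and 7.47 in control IP and at 9.13, 9.11, 9.03 and 8.97 in PMCA IP (log2 fold 1.52, adjusted p = 6.4e-05), with a lysate log2 fold of 0.07.

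Among loci annotated as microRNA genes, 9 of 38 were higher (23.7%) and 0 lower, and among 104 transcribed pseudogenes 21 (20.2%) and 2. The shares over all genes tested were 9.54% higher and 10.1% lower. These classes are not counted here among genes of higher level alone. The part of a low level in their shares was not tested. Of 14748 protein-coding genes 1299 were higher and 1569 lower. Hk2, for hexokinase 2, and Perm1, a regulator of muscle mitochondria chosen after its value was seen, rose by 1.06 (adjusted p = 0.00428) and 1.29 (0.000738) while most respiratory subunits were lower.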
